A study of Mus musculus with 6 samples.

Results

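Serum response factor (SRF) and the cofactors that work with it were followed in embryonic mouse hearts. In the knockouts, the genes of the RNA-binding proteins RBPMS and RBPMS2 were targeted for deletion in cardiomyocytes. The genes of SRF and its cofactors were taken by name from the table of 45706 genes: Srf, the myocardin family (Myocd, Mkl1 and Mkl2), the ternary complex factors (Elk1, Elk3 and Elk4) and Abra. All 8 were found, and all 8 passed the filter on low values (a mean of at least 10). Poly(A) RNA of 6 hearts of strain C57BL6/J was sequenced as stranded, paired-end libraries. The 3 control hearts were littermates with the genotype RBPMS flox/flox and RBPMS2 flox/flox, and the 3 knockout hearts had those floxed alleles plus aMyHC Cre, a recombinase driven in cardiomyocytes by the promoter of alpha-myosin heavy chain. No control label names Cre, so the transgene and the deletion cannot be told apart, and other cell types of the heart keep intact alleles. The sources used here do not give the embryonic day.

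SRF is a transcription factor of the MADS-box family that binds as a dimer to the CArG box, a short run of A and T between CC and GG. It has little activity of its own and is directed by partners of different kinds. Myocardin (Myocd) and the myocardin-related factors MRTF-A and MRTF-B (Mkl1 and Mkl2 in the table) bind SRF and drive genes of contraction and the actin cytoskeleton, and the MRTFs are held back by unpolymerised actin. The ternary complex factors Elk1, Elk3 and Elk4 are ETS-domain proteins that sit beside SRF on DNA, are phosphorylated by the kinase ERK and control immediate early genes. Abra, also called STARS, is a striated muscle protein that binds actin and promotes the entry of MRTFs into the nucleus. In the developing heart SRF is needed for sarcomere assembly, and myocardin is restricted to cardiac and smooth muscle.

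The Srf promoter is shown because it holds CArG boxes of its own and because Srf was the member that differed most between the groups. The sequence is the RefSeq window upstream of the Srf start (GRCm38.p6, which is the mm10 assembly, chr17:46556176-46556412, minus strand, 237 bases, 5′ to 3′), ended at the base before the annotated gene. The 2 CArG boxes are in capitals.
Srf: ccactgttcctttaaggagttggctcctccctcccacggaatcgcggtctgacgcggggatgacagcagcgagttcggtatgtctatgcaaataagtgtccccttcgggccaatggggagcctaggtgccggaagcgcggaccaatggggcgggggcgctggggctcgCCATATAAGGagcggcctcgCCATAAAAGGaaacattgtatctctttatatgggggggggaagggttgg
The boxes begin at positions -82 and -62 from the RefSeq start and lie 10 bases apart. The ETS word CCGGAA, searched on both strands, begins once in this stretch, at -122. Of 32851 RefSeq promoter windows of 300 bases, 1.63% hold a CArG box and 14.9% hold CCGGAA. Windows were also matched for Mkl1, Mkl2, Elk1, Elk3 and Elk4, and none of these held a CArG box. CCGGAA was in a window of Mkl2 and Elk4 and not in those of Mkl1, Elk1 or Elk3. A match is a run of letters, not evidence of binding.

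The labels and libraries were checked first. Rbpms had a log2 fold change, knockout minus control, of -2.53 (SE 0.22, limma p of 0.000325 after adjustment) and Rbpms2 one of -0.84 (SE 0.12, limma p of 0.00207 after adjustment), both lower in every knockout than in any control. In whole-heart RNA this is a change of -82.7% for Rbpms and -44.3% for Rbpms2. How complete the deletion was in cardiomyocytes, and the level of the proteins, were not measured here. Estimated depth was 12959798 to 25837261 reads per heart. Each member rested on 169 to 4477 estimated reads per heart, which gives a counting error of 1.49% at the highest and 7.69% at the lowest. Cardiomyocyte markers such as Tnnt2 and Actn2 were abundant in every heart, and of 4 skeletal muscle markers Myod1 and Pax7 were listed at 0 and Myog at 0 to 12. The fourth, the creatine kinase gene Ckm, is also a heart gene: it was at 25958 to 31814 in control hearts against 17618 to 20306 in knockout hearts and fell by 0.61 on the log2 scale. By Xist and Y-linked genes, the controls were 2 female hearts and 1 male heart, and the knockouts 1 female and 2 male.

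The comparison asked how the transcripts of SRF and its cofactors differed in hearts with Rbpms and Rbpms2 targeted in cardiomyocytes. Srf fell and Elk3 rose, and the other 6 members did not pass the threshold (limma, Benjamini-Hochberg adjustment across the 15556 genes tested, threshold 0.05). Across all genes tested, 17.2% passed, 8.61% higher and 8.56% lower in the knockouts. With 2 of 8 members past the threshold, the count is near that background and describes single genes, not the set. The groups did not overlap for 3 members, Srf, Elk3 and Elk4, against 35.4% of all genes tested. The median log2 fold change of the 8 members was -0.05, beside 0.00 over all genes.

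**Figure D1:**
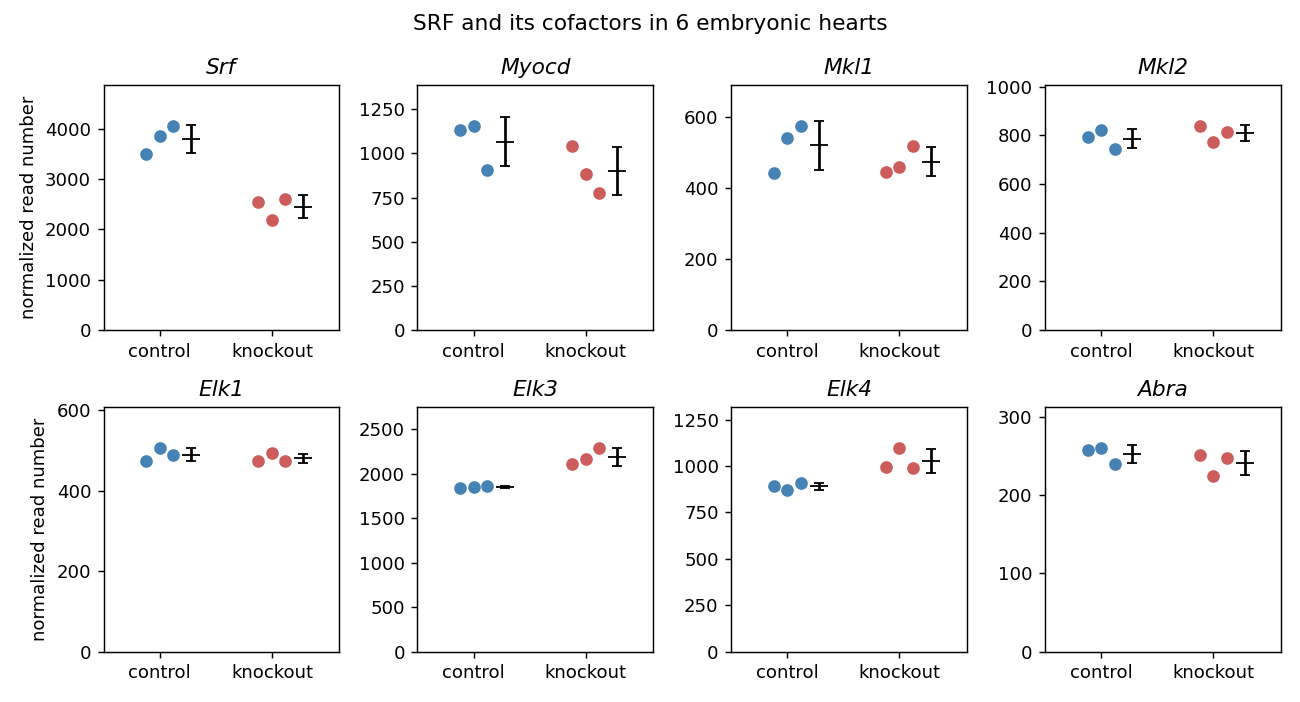
Normalized read number of each of the 8 members (y axis, starting at 0) in the 3 control and 3 knockout hearts (points, in the order of replicates 1 to 3), with the mean and SD beside them. Srf is lower in all 3 knockouts (2194 to 2612) than in the controls (3504 to 4059), Elk3 and Elk4 are higher in all 3, and the other 5 overlap.

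Srf (ENSMUSG00000015605, mm10 chromosome 17, 46548329 to 46556175, minus strand) encodes the DNA-binding partner on which all the cofactors converge. Its normalized read number was 3504, 3848 and 4059 in the control hearts, given as replicates 1 to 3 here and for each gene after it, against 2551, 2194 and 2612 in the knockout hearts. Every knockout lay below every control, and the lowest heart was knockout replicate 2. The mean was 3804 ± 280.1 in control hearts against 2452 ± 226 in knockout hearts (SD, n = 3 each). The log2 fold change was -0.63 (SE 0.08, limma p of 0.0014 after adjustment), a change of -35.6% with a 95% interval of -43.4% to -26.6%. Under all 15 alternatives tried, Srf stayed past the threshold, with log2 fold changes from -0.69 to -0.56. The difference had the same direction in each sex: the female knockout heart was at 2194 against 3504 and 4059 in the female controls, and the male knockouts were at 2551 and 2612 against 3848 in the male control. The microRNA gene Mir6976 lies within Srf and was listed at 2 to 4 in every heart, and no annotated gene shared exon bases with Srf.

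The hearts are mixtures of cell types, so fewer cells of a type and less RNA per cell cannot be told apart. Of 8 cardiomyocyte markers, 1 fell (Actn2) and none rose, with a median log2 fold change of -0.17. Their summed level was 517109 to 533852 in control hearts against 442888 to 505638 in knockout hearts, with Tnnt2 and Myl2 the largest values in it. The groups overlapped for Ttn, Myl2, Nkx2-5, Myl3 and Tnni3, and Myl3 (log2 fold change 0.035) and Tnni3 (0.038) lay above 0. Of 7 fibroblast markers 3 rose, of 7 macrophage markers 4 and of 7 epicardial markers 1 (Tcf21), and no marker of these lists fell. Across all genes tested, 8.61% were called higher and 8.56% lower. The groups overlapped for the fibroblast markers Dcn, Lum and Col1a1 and the macrophage marker Mrc1. They also overlapped for the epicardial markers Upk3b, Aldh1a2, Wt1 and Tbx18. Fibroblast markers summed to 90708 to 105485 in control hearts against 118035 to 147863 in knockout hearts, macrophage markers to 1470 to 1579 and 2019 to 2725, and epicardial markers to 4113 to 4614 and 4924 to 5651. Of 4 erythroid markers none passed, with a median log2 fold change of -0.61, and their sums did not overlap, at 14493 to 24967 in control hearts against 10791 to 13856 in knockout hearts. Hba-a1, an alpha-globin gene, was at 7848, 8216 and 13295 in control hearts against 6048, 5680 and 7708 in knockout hearts, and Alas2, an enzyme of haem synthesis in red cells, at 616, 600 and 1096 against 412, 384 and 601. None of the markers in these 5 lists was listed at 0. The part of cell composition in the Srf difference was not tested.

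**Figure D2:**
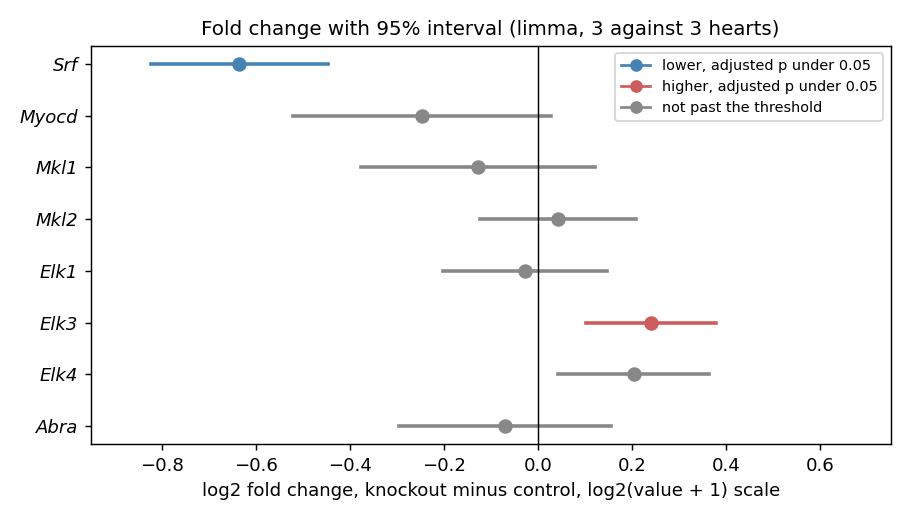
Log2 fold change, knockout minus control (x axis), of each member with its 95% interval from limma, 3 against 3 hearts. The intervals of Srf, Elk3 and Elk4 leave out 0, and after adjustment over all genes Srf (-0.63) and Elk3 (0.24) pass the threshold.

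The coactivators of the myocardin family were not called in either direction. Myocd (ENSMUSG00000020542, chromosome 11, 65176561 to 65269989, minus strand), the muscle-restricted coactivator, read 1133, 1157 and 906 in control hearts against 1043, 881 and 775 in knockout hearts. Its groups overlapped, since knockout replicate 1 lay above control replicate 3. The log2 fold change was -0.25 (SE 0.12, limma p of 0.204 after adjustment), with a 95% interval from -30.3% to 2.01%. That interval holds 0 and leaves out a fall of 35.6%, the estimate for Srf. It overlaps the interval of Srf, which runs from -43.4% to -26.6%, and a difference between the genes was not tested.

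Mkl1, the gene of MRTF-A (ENSMUSG00000042292, chromosome 15, 81012281 to 81190757, minus strand), read 444, 542 and 576 in control hearts against 445, 460 and 520 in knockout hearts. The lowest control and the lowest knockout were nearly equal, and the groups overlapped. The log2 fold change was -0.13 (SE 0.11, limma p of 0.48 after adjustment), with an interval from -22.9% to 8.83%. Mkl2, the gene of MRTF-B (ENSMUSG00000009569, chromosome 16, 13256481 to 13417529, plus strand), read 794, 822 and 744 in control hearts against 840, 775 and 816 in knockout hearts. The groups were interleaved, with a log2 fold change of 0.04 (SE 0.07, limma p of 0.74 after adjustment) and an interval from -8.15% to 15.6%. For both MRTF genes, too, the interval leaves out a fall of 35.6%, the estimate for Srf, and a difference from Srf was not tested. Mkl1 shares 10 exon bases with Sgsm3 and Mkl2 shares 162 with Gm15738, each on the opposite strand.

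Abra (ENSMUSG00000042895, chromosome 15, 41864076 to 41869720, minus strand) links actin to the MRTFs and was the least covered member. It was at 258, 261 and 240 in control hearts against 252, 224 and 248 in knockout hearts, with overlapping groups. The log2 fold change was -0.07 (SE 0.10, limma p of 0.69 after adjustment), with an interval from -18.4% to 11.5%.

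Of the 3 ternary complex factors, Elk3 rose and Elk4 and Elk1 did not pass the threshold; whether they differ from each other in their change was not shown. Elk3 (ENSMUSG00000008398, chromosome 10, 93247414 to 93311135, minus strand), also called Net, represses SRF targets until it is phosphorylated and is known in endothelial cells. It was at 1842, 1851 and 1861 in control hearts against 2106, 2166 and 2295 in knockout hearts. Every knockout lay above every control, and the controls lay closer together than the counting error of 2.77% in the shallowest library. The log2 fold change was 0.24 (SE 0.06, limma p of 0.0253 after adjustment), a rise of 18.2% with an interval from 7.39% to 29.996%. The call depended on single hearts: the adjusted p was 0.0751 without control replicate 2, 0.062 without control replicate 3, 0.0929 without knockout replicate 2 and 0.0878 without knockout replicate 3, and it was 0.062 with embryo sex as a term. The size changed little, from 0.21 to 0.27 over the 15 alternatives. In both sexes the direction was the same, with the female knockout at 2166 against 1842 and 1861, and the male knockouts at 2106 and 2295 against 1851.

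Some endothelial markers also rose. Of 10 endothelial markers 5 rose (Emcn, Tek, Tie1, Nfatc1 and Egfl7) and none fell, with a median log2 fold change of 0.24. Across all genes tested, 8.61% were called higher. Pecam1, Esam, Erg, Kdr and Cdh5 did not pass, and the groups overlapped for Kdr (log2 fold change 0.04) and Cdh5 (0.0016). The summed level of the 10 markers was 20959 to 21619 in control hearts against 23633 to 26129 in knockout hearts, and none was listed at 0. Their part in the Elk3 difference was not tested. Elk3 also shares 316 exon bases with Cdk17, a kinase gene on the opposite strand, and the sources used here do not say whether counting used strand. Cdk17 was at 1197, 1000 and 1046 in control hearts against 1023, 1128 and 1059 in knockout hearts, so its groups overlapped.

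Elk4 (ENSMUSG00000026436, chromosome 1, 132007607 to 132032612, plus strand), also called SAP-1, read 894, 871 and 908 in control hearts against 995, 1100 and 988 in knockout hearts. Its groups did not overlap, yet it missed the threshold: the log2 fold change was 0.20 (SE 0.07, limma p of 0.0799 after adjustment), with an interval from 3.09% to 28.7%. Over the 15 alternatives its adjusted p ranged from 0.0515 to 0.296. Elk4 shares 104 exon bases with Gm29103 on the same strand, which was listed at 0 in every heart. It shares 84 with Mfsd4a on the opposite strand, at 120 to 210 in control hearts against 133 to 177 in knockout hearts. Elk1 (ENSMUSG00000009406, chromosome X, 20933395 to 20950608, minus strand), the founding member of the class, read 473, 507 and 488 in control hearts against 474, 493 and 473 in knockout hearts. The log2 fold change was -0.03 (SE 0.08, limma p of 0.849 after adjustment), and the interval ran from -13.0% to 10.7%. Elk1 shares 76 exon bases with Uxt on the same strand, and Uxt was at 225 to 260 in control hearts against 183 to 198 in knockout hearts.

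Levels of different genes were compared as normalized reads per kilobase of merged exons. On that scale Srf stood above every cofactor in all 6 hearts, at 1315 ± 96.8 in control hearts against 848 ± 78.0 in knockout hearts (SD, n = 3 each), and at the 94.5th percentile of the protein-coding genes tested. Elk3 came next, at 407 ± 2.09 and 481 ± 21.2. Myocd (166 ± 21.6 and 140.0 ± 21.01) and Elk4 (139 ± 2.92 and 160.4 ± 9.79) followed and overlapped each other in both groups. Elk1, Mkl2, Abra and Mkl1 lay lowest, with group means from 77.7 to 90.9. In the controls each neighbour among these 4 overlapped the next, and in the knockouts Elk1 and Mkl2 (86.2 to 93.4) lay above Abra and Mkl1 (72.8 to 85.1). Within the myocardin family Myocd was the most abundant in all 6 hearts, and Elk3 was the most abundant ternary complex factor in all 6.

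**Figure D3:**
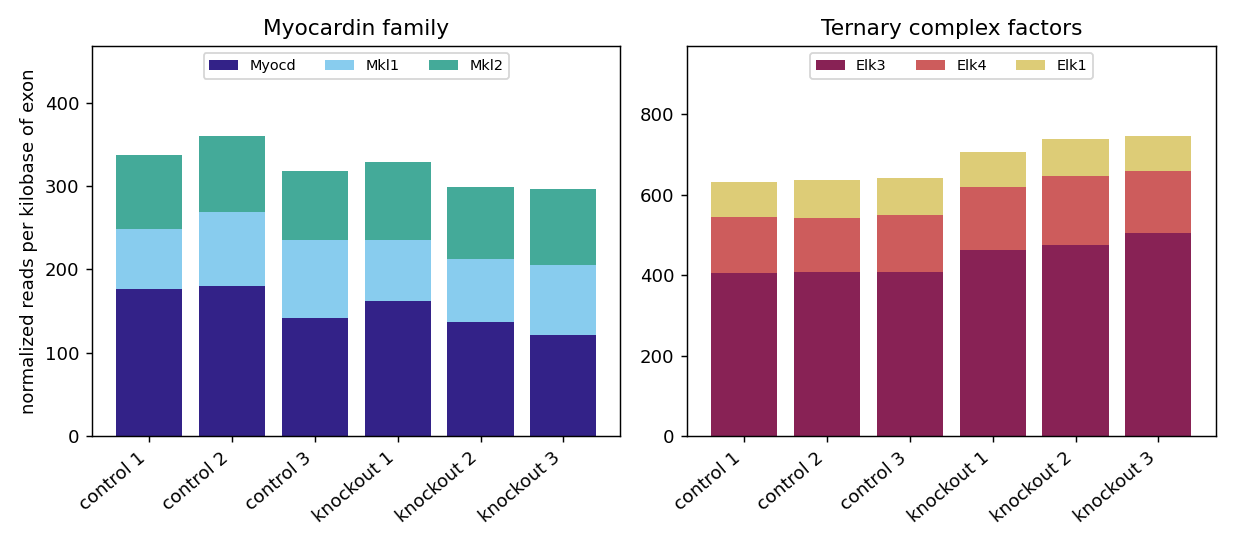
Stacked bars of the level of each cofactor, in normalized reads per kilobase of merged exons (y axis, starting at 0), in each of the 6 hearts. The summed ternary complex factors are higher in the 3 knockouts (706 to 747) than in the controls (632 to 641), while the summed myocardin family overlaps between the groups.

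The make-up of each family and its ratio to Srf were compared between the groups with exact two-sided permutation tests on 11 quantities. With 3 hearts against 3, the smallest p possible is 0.1, so no quantity could pass 0.05, and the adjusted p was at least 0.183. The summed ternary complex factors were at 637 ± 4.57 per kilobase in control hearts against 731 ± 21.5 in knockout hearts (SD, n = 3 each), without overlap (exact permutation p = 0.1). Elk3 was 4.61, 4.32 and 4.51 times as high as Elk1 in the controls and 5.25, 5.20 and 5.74 times in the knockouts, again without overlap (exact permutation p = 0.1). The share of Elk1 in its class was 14.3% ± 0.461 in control hearts against 12.2% ± 0.382 in knockout hearts, and that of Elk3 was 63.9% ± 0.132 and 65.8% ± 1.61 (SD, n = 3 each; exact permutation p = 0.1 for each). Elk3 enters the sum, the ratio and both shares, so these quantities are not separate from its rise.

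The summed myocardin family was at 339 ± 21.1 per kilobase in control hearts against 308 ± 17.96 in knockout hearts and overlapped (SD, n = 3 each; exact permutation p = 0.2). Set against Srf, the family sum was 0.278, 0.271 and 0.227 of the Srf level in control hearts against 0.373, 0.394 and 0.328 in knockout hearts, without overlap (exact permutation p = 0.1). Because Srf is the denominator, the fall of Srf enters this ratio. Myocd alone was 0.146, 0.135 and 0.101 of the Srf level in control hearts against 0.184, 0.181 and 0.134 in knockout hearts, and these overlapped (exact permutation p = 0.3). Mkl2 made up 25.9% ± 0.423 of the family in control hearts against 29.3% ± 1.154 in knockout hearts, without overlap (SD, n = 3 each; exact permutation p = 0.1), while the shares of Myocd and Mkl1 overlapped. The Mkl2 share also depends on Myocd and Mkl1, and Mkl2 itself changed by 0.04 on the log2 scale.

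The genes whose pattern over the 6 hearts was most like that of Srf, among 10607 protein-coding genes with a mean of at least 100, were Paxip1, Ivd, Nup62, Ube2c and Rhno1. Their Pearson correlations with Srf on the log2 scale were 0.998, 0.997, 0.996, 0.996 and 0.996. The values are a description over 6 hearts of 2 groups, picked as the highest of many. Ube2c, a ubiquitin-conjugating enzyme of mitosis, was at 2502, 2898 and 3051 in control hearts against 1712, 1533 and 1770 in knockout hearts. As with Srf, control replicate 3 was the highest heart and knockout replicate 2 the lowest. Ivd, an enzyme of leucine breakdown, was at 3692, 3904 and 3900 in control hearts against 3009, 2769 and 3090 in knockout hearts.

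The other genes of the pathway were read from 8 lists, of which 7 are described here. The 8 lists held 139 genes, of which 137 were tested. Of these, 21 fell and 14 rose, 25.5% against the 17.2% of all genes. The lists were chosen with earlier results of these data known, so these shares are not an independent comparison. Leaving out each heart in turn gave 14 to 23 lower and 10 to 17 higher, and scaling the hearts to equal totals gave 18 lower and 22 higher. The family relatives came first. None of the 4 tested MADS-box and myocardin relatives passed, at a median of -0.18. Mef2d, the MADS-box factor nearest to the threshold, was at 4165, 4688 and 4937 in control hearts against 3609, 3819 and 4241 in knockout hearts (log2 fold change -0.24, SE 0.08, limma p of 0.0767 after adjustment). It passed without control replicate 1 (adjusted p = 0.0322) and without knockout replicate 3 (adjusted p = 0.0482), and with the replicate number as a block (adjusted p = 0.0115). Mef2a was at 7140 to 8517 in control hearts against 6584 to 7167 in knockout hearts.

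Upstream of the ternary complex factors, 1 of 18 genes of the ERK cascade rose and none fell, at a median of 0.06. The share of all genes tested that passed was 17.2%. Grb2, the adaptor between receptors and RAS, rose by 0.23 (SE 0.06, limma p of 0.0292 after adjustment). It missed the threshold under 8 of 15 alternatives, including each of the 6 that leave out a heart, with adjusted p from 0.0572 to 0.102 there.

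Among 22 partners and modulators of SRF, 2 rose and 2 fell, at a median of -0.10. Beside the 17.2% of all genes tested that passed, this count is near the background and describes single genes. Hopx, a homeodomain protein that binds SRF and hinders it, rose from 5570, 6973 and 5976 in control hearts to 8706, 8905 and 8268 in knockout hearts (log2 fold change 0.49, SE 0.08). Fhl2, a LIM protein that binds SRF and is a target of it, fell from 10787, 11632 and 11602 to 9493, 7748 and 8332 (log2 fold change -0.42, SE 0.08). Prrx1, a homeodomain factor of mesenchyme, rose by 0.69 (SE 0.11), and Cenpf, a large protein of the kinetochore, fell by 0.77 (SE 0.08). The cardiac factors that bind beside SRF did not pass: Gata4 was at 5130 to 6182 in control hearts against 4849 to 5529 in knockout hearts, and Nkx2-5 at 1356 to 1864 and 1195 to 1824. Gata6 did not overlap, at 3790 to 4442 in control hearts against 3507 to 3631 in knockout hearts (log2 fold change -0.18, limma p of 0.113 after adjustment). Tbx5 overlapped, with a log2 fold change of 0.13.

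**Figure D4:**
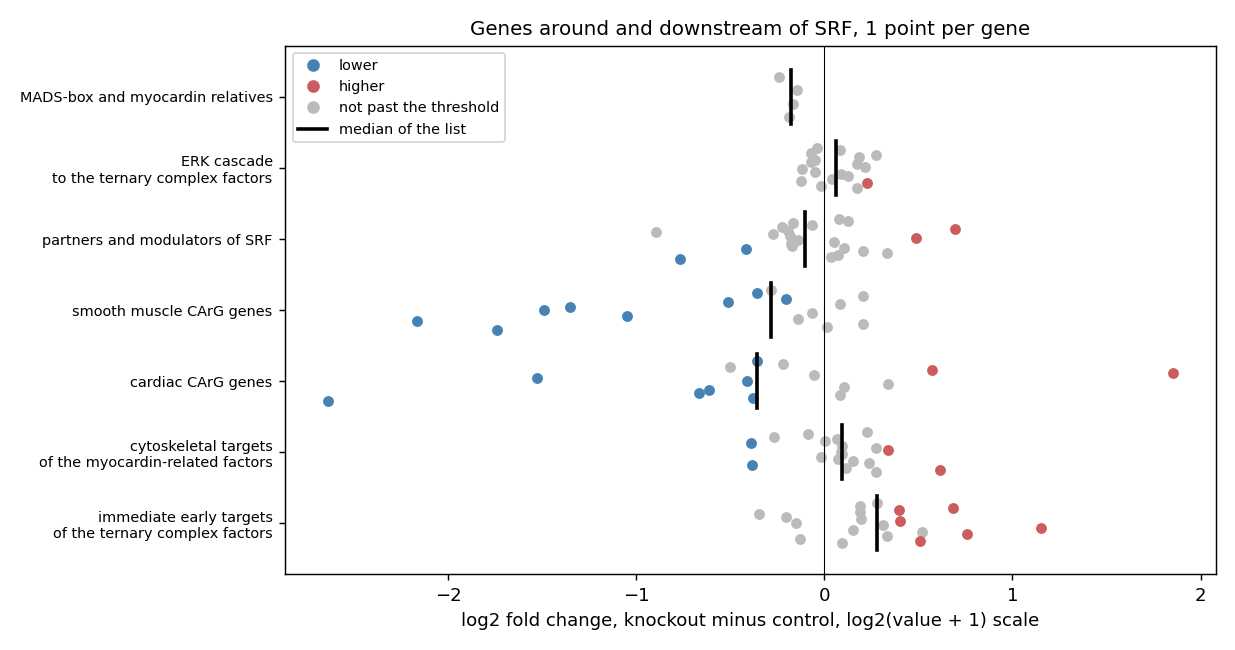
Log2 fold change, knockout minus control (x axis), of each tested gene of 7 pathway lists, 1 point per gene, with the list's median as a bar. Genes past the threshold lie mostly to the left in the smooth muscle list (8 lower, 0 higher) and the cardiac CArG list (7 lower, 2 higher), and to the right in the immediate early list (0 lower, 6 higher).

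The 4 lists of known or proposed targets follow, and differences between lists were not tested. Their counts stand beside 8.61% of all genes tested called higher and 8.56% called lower. Of 15 smooth muscle CArG genes, 8 fell and 0 rose, at a median of -0.28, with 6 to 7 lower and 0 to 1 higher when each heart was left out. Acta2, Myl9, Cnn1 and Smtn had the smallest p: Cnn1, calponin, was at 1498, 1337 and 1576 in control hearts against 509, 316 and 217 in knockout hearts, and Smtn, smoothelin, at 2596, 2513 and 3147 and 1809, 1866 and 2103. Tagln, a classic target of myocardin, was at 692, 470 and 746 in control hearts against 778, 739 and 645 in knockout hearts, with overlap (log2 fold change 0.20, SE 0.16, limma p of 0.41 after adjustment). Tagln lies outside the rule for named genes and was chosen after its values were seen. Of 6 markers of smooth muscle and pericytes, Myh11, which is in both lists, fell and Mcam rose. The summed level of the 6 was 14973 to 16839 in control hearts against 18350 to 20306 in knockout hearts. Mcam had the largest values in it, at 6636 to 7512 in control hearts against 8587 to 9151 in knockout hearts. Myh11 had the smallest, at 106 to 153 against 31 to 80. The groups overlapped for Pdgfrb, Notch3 and Rgs5.

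Of 15 cardiac CArG genes, 7 fell and 2 rose, at a median of -0.36, with 4 to 7 lower and 2 to 3 higher when each heart was left out. Acta1, skeletal alpha-actin, was at 1994, 1991 and 2210 in control hearts against 544, 290 and 228 in knockout hearts, and Atp2a2, which pumps calcium back into the sarcoplasmic reticulum, at 74671, 67465 and 74725 and 47788, 46849 and 42229. Myh6, the alpha-myosin heavy chain, changed by -1.53 (SE 0.11), and Nppa, the atrial natriuretic peptide gene, rose by 1.85 (SE 0.20). The promoter that drives Cre in the knockouts is that of alpha-myosin heavy chain, so the Myh6 value comes from hearts that carry it as a transgene.

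Of 19 cytoskeletal targets of the MRTFs, 2 rose and 2 fell, at a median of 0.09. Actg1, the cytoplasmic gamma-actin, was at 5635, 6485 and 6875 in control hearts against 9172, 9017 and 10935 in knockout hearts, and Lima1, a LIM protein of actin bundles, at 823, 756 and 744 and 1001, 977 and 958. Cnn2, a calponin of many cell types, fell by 0.39 (SE 0.07), as did Tgfb1i1, the LIM protein Hic-5 (SE 0.08). Without knockout replicate 2, Lima1 (limma p of 0.0511 after adjustment) and Tgfb1i1 (limma p of 0.0563 after adjustment) missed the threshold. Reads can be shared between the near-identical actin genes, so Acta1, Acta2, Actc1 and Actg1 are less certain.

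Of 19 tested immediate early genes, 6 rose and 0 fell, at a median of 0.28, with 5 to 6 higher and 0 to 2 lower when each heart was left out. The 2 lower were called without control replicate 1, and 1 was with the replicate number as a block. Fos was at 51, 64 and 77 in control hearts against 99, 161 and 177 in knockout hearts, and Maff, a small bZIP factor, at 253, 261 and 267 and 359, 494 and 413. Btg2 rose by 0.51 (SE 0.10) and Fosl2 by 0.40 (SE 0.08). The other 13 tested genes did not pass, and their log2 fold changes ran from -0.34 for Jun to 0.52 for Egr2. Below 0 were Jun, Ier3 (-0.20), Fosl1 (-0.15) and Dusp1 (-0.13).

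CArG boxes in the promoter windows of called genes are shown because the genes that hold them moved in both directions. The boxes are in capitals with 10 bases on each side, 5′ to 3′ on the gene's strand, from RefSeq (GRCm38.p6), and none of those shown overlaps an annotated exon. A further box of Fhl2, in another window, overlaps an exon and is not shown. Boxes were also in windows of Fhl1, Dmd, Vcl, Egr2 and Dusp5, which did not pass the threshold. Most genes of the CArG lists held no box in their windows. A box was in 1 of 12 smooth muscle CArG genes with a window (Myl9) and in 3 of 12 cardiac ones. Of the genes that fell, 6 smooth muscle and 2 cardiac CArG genes held none there. Actc1 lies outside the rule for named genes and was added after its values were seen.
Acta1: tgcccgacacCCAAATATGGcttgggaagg
Actc1: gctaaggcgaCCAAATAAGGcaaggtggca
Myl9: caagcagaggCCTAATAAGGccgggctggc
Cnn2: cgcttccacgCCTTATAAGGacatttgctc
Fhl2: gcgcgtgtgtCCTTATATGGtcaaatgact
Actg1: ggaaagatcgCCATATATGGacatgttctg
Lima1: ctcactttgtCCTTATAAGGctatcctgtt
Hopx: taacccgagtCCAAATAAGGaagctgggga
The sites are chr8:123894829-123894858 for Acta1, chr2:114052903-114052932 for Actc1, chr1:43163973-43164002 for Fhl2, chr11:120348566-120348595 for Actg1, chr15:99820177-99820206 for Lima1 and chr5:77115187-77115216 for Hopx, all on the minus strand. Those on the plus strand are chr2:156775293-156775322 for Myl9 and chr10:79988534-79988563 for Cnn2. The first 5 genes fell and the last 3 rose, and the same 10 letters stand in Cnn2, which fell, and Lima1, which rose, as they do in Actc1, which fell, and Hopx, which rose. Actc1 missed the threshold under 11 of 15 alternatives and, with quantile normalization, changed by -0.11.

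Counted over all genes tested, 1.62% of the 11105 with a matched window held a CArG box in it. The share was 2.48% of the 1048 that fell and 1.13% of the 974 that rose. The Srf promoter, with 2 boxes, belongs to a gene that fell. The CCGGAA word was in a window of 29.7% of the tested genes, 29.6% of those that fell and 17.5% of those that rose. These shares are descriptions of the letters in the windows, and more distant sites were not searched.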

How the data were processed

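The deposited values were handled as a score. The file header of the deposited table states no unit. The spacing of low values is that of reads multiplied by 1 factor per sample and rounded, which is an inference from the values, and the estimated reads, depths and counting errors rest on it. The submitters' processing notes list build mm10, STAR 2.4.2a, featureCounts 1.5.0, Trimmomatic, DESeq and DESeq2, with no role given. The step that 1 read is worth, fitted on values up to 150, gave the depths. Because of the rounding, exact reads cannot be recovered and no count model was the main test.

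The test was limma 3.58.1 (R 4.3.3) with a variance trend on log2(value + 1), which understates the change of low genes, for genes with a mean of at least 10, with the group only in the design. It was also run on simulated counts with the same variability setting for every gene, and the outcome is not given here. P-values set the group difference against the spread between hearts. In limma that spread is not the gene's own alone, since each gene's variance is drawn toward the trend over all genes. Exon lengths and positions came from GENCODE M21 (mm10), where 45143 of 45706 identifiers were found. Promoters and figures used Python 3.11.15 and matplotlib 3.10.9.

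Members and lists were chosen with earlier results of these data known. Named genes were the members, the targeted genes, the 5 genes most correlated with Srf, and for each list the 4 (or fewer) past the threshold with the smallest p, and 2 where no gene passed; values of other list genes were added after they were seen. Alternatives were other pseudocounts, filters and scalings, limma-voom on estimated reads, the replicate number as a block, embryo sex as a term, and leaving out each heart. Marker lists are given by counts and sums, with a few genes. The results of 1 pathway list are not reported here.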

Additional observations from a re-analysis of the deposited data

How the results depend on the processing

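Srf kept its direction and its call under all 15 alternatives, and 7 of 8 members kept their direction. Elk1, at -0.03, was at 0.0032 with equal totals. The count of members higher, 1, was 0 with embryo sex as a term and 0 to 1 without each heart in turn, and the count lower stayed at 1 there. Genes called higher, 1339, numbered 846 with no filter on low values, which tested more genes, and 614 to 1237 without each heart. Genes called lower, 1331, numbered 691 to 1225 without each heart. Of pathway genes, 14 higher became 22 with equal totals and 10 to 17 without each heart, and 21 lower became 14 to 23. Of the 35 called pathway genes, 23 passed under every alternative and 0 changed direction. The cause of these shifts was not tested.

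With the replicate number as a block, 1787 genes were higher and 1743 lower, 2 members were lower, since Myocd passed (-0.25, limma adjusted p = 0.0355), and 27 pathway genes were higher. Whether the numbers pair the hearts was not settled. Deviations of same-numbered hearts correlated at -0.041, -0.372 and 0.0486, and no heart correlated best with its own number. Same-numbered hearts were of opposite sex, and so few hearts per group cannot show whether they share a litter or batch.

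The difference in the Mkl1 share of its family, 0.0904 percentage points, was -0.205 without division by exon length and -1.77 to 2.28 without each heart. That in the Elk4 share, 0.121, was -0.512 to 0.77 without each heart. Abra, at 169 to 364 estimated reads, was the member most limited by depth.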
